A study of Homo sapiens with 5 samples.

Results

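The proteasome genes of RH4 cells, an established line of alveolar rhabdomyosarcoma (a childhood tumour of skeletal muscle type), were compared between a control siRNA and an siRNA against the circular RNA circVAMP3. Genes were taken by name: every protein-coding row whose symbol starts with PSMA, PSMB, PSMC, PSMD, PSME, PSMF or PSMG followed by a number. This gave 46 genes among 12027 protein-coding rows and 13822 rows in all. Of these 46, PSMC3IP and PSME3IP1 match by name but encode no part of the proteasome, and the other 44 encode its subunits, its activators and inhibitor, or its assembly chaperones. PSMA8, PSMB8, PSMB9 and PSMB11 had no row and were not analysed here.

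The series holds poly-A RNA-seq of 3 libraries transfected with the control (si-SCR) and 2 transfected with si-circVAMP3, which targets the back-splicing junction of the circular RNA. Each siRNA was used at 30 nM, with 24 h in the transfection medium and 24 h in fresh medium before harvest, and the methods of the study call the samples biological replicates. Values are FPKM, fragments scaled to gene length and library size. Levels between genes depend on the annotated gene lengths. The effective library sizes, recovered from the steps between low values, were 26672263, 24991642 and 24946721 fragments for si-SCR 1, 2 and 3, and 18533740 and 28798388 for si-circVAMP3 1 and 2.

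The proteasome degrades proteins that carry ubiquitin chains. Its 20S core is a barrel of alpha and beta rings, and the cutting sites lie on beta subunits inside. The 19S particle caps the barrel: an ATPase ring unfolds the substrate, and a lid removes the ubiquitin chain. Cells can raise many subunit genes together through the transcription factor NFE2L1, and inhibitors of the core such as bortezomib kill tumour cells.

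Linear VAMP3 mRNA was read first as an indirect check of the labels, since circVAMP3 itself lacks a poly-A tail and has no row of its own. VAMP3 stood at 36.4, 35.4 and 37.4 FPKM in the si-SCR libraries and at 29.4 and 30.2 in the si-circVAMP3 libraries. The groups did not overlap, and VAMP3 was lower by a log2 fold change of -0.29 ± 0.04 (SE, limma adjusted p = 0.0047). Of the 11 myogenic markers, 9 had a row, DES was the most abundant, and MYF5 and MYF6 had none. Their summed level was 831, 835 and 747 FPKM in si-SCR and 703 and 694 in si-circVAMP3. Of these 9, 4 were called lower (MYOG, CHRNG, CHRND and FOXO1), beside 16.8% of all genes tested. The other 5 were not called (MYOD1, DES, CHRNA1, TFAP2B and PAX3). MYOG, a regulator of muscle differentiation, changed most, from 175, 179 and 149 FPKM to 101 and 96.6 (log2 fold change -0.76, limma adjusted p = 0.0015), and CHRNG was at -0.59. MYOD1, another muscle regulator, was at 0.20 with overlapping groups. The part of these differences in the proteasome results was not tested. Of the 4 immune markers none had a row. The epithelial list was carried by KRT8 alone, at 0.316, 0.215 and 0.256 FPKM in si-SCR and 0.651 and 0.58 in si-circVAMP3. Its treated values were the higher ones, on 37 to 115 fragments a library, it lay below the filter and was not tested, and its part in the results was not tested either. The endothelial list was carried by PECAM1 alone, at 0.0777 to 0.153 FPKM with overlapping groups. COL3A1 led the fibroblast list at 33.6, 31.1 and 31.5 FPKM in si-SCR and 29.5 and 27.1 in si-circVAMP3. Both treated values lay below the controls, at the edge of the threshold (log2 fold change -0.18, adjusted p = 0.05 by limma, not called, and 0.027 by limma voom), and the part of this in the results was not tested. The rest of the list had COL1A1 and DCN under 1 and no row for LUM.

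Many subunit genes rose slightly in the si-circVAMP3 libraries, while transcripts of the ATPase PSMC5 and the lid deubiquitinase PSMD14 fell by far more, with changes of -55.5% and -60.5% in mean FPKM. Of the 46 genes, 45 reached 1 FPKM in at least 2 samples and were tested, and PSMG4 did not. Among these 45, 22 were higher (48.9%, against 15.9% of all 11253 genes tested) and 4 were lower (8.9%, against 16.8%), by limma on log2(FPKM + 0.5) at an adjusted p under 0.05. The median log2 fold change of the 45 was 0.14, beside 0.01 over all genes tested. The increases were small, from 0.15 to 0.35, and 0 of the 45 passed 0.58, the threshold used in the study, upwards (1.11% of all genes), also at an unadjusted p under 0.05 and by limma voom, whereas 2 passed it downwards (2.79% of all genes). Both si-circVAMP3 libraries lay above all si-SCR libraries for 29 of the 45 (30.7% of all genes) and below them for 7 (29.2% of all genes), and the groups overlapped for 9. The count of increases depended on single libraries: it was 13 without si-SCR 2 (28.9%, against 8.8% of all genes tested), 7 without si-circVAMP3 1 (15.6%, against 4.7%) and 4 without si-circVAMP3 2 (8.9%, against 4.4%). Calls thus fell over the whole table as well, and leaving out either of the last pair leaves that arm with 1 sample, assumed to vary like the others. Of the 22, 4 were called under each of the 16 alternatives (PSMA5, PSMB2, PSMD11 and PSME1), as were 2 of the 4 lower (PSMC5 and PSMD14). The median stayed between 0.12 and 0.17 when any single library was left out. In bulk RNA, less of a transcript per cell and fewer cells that carry it cannot be told apart.

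**Figure D1:**
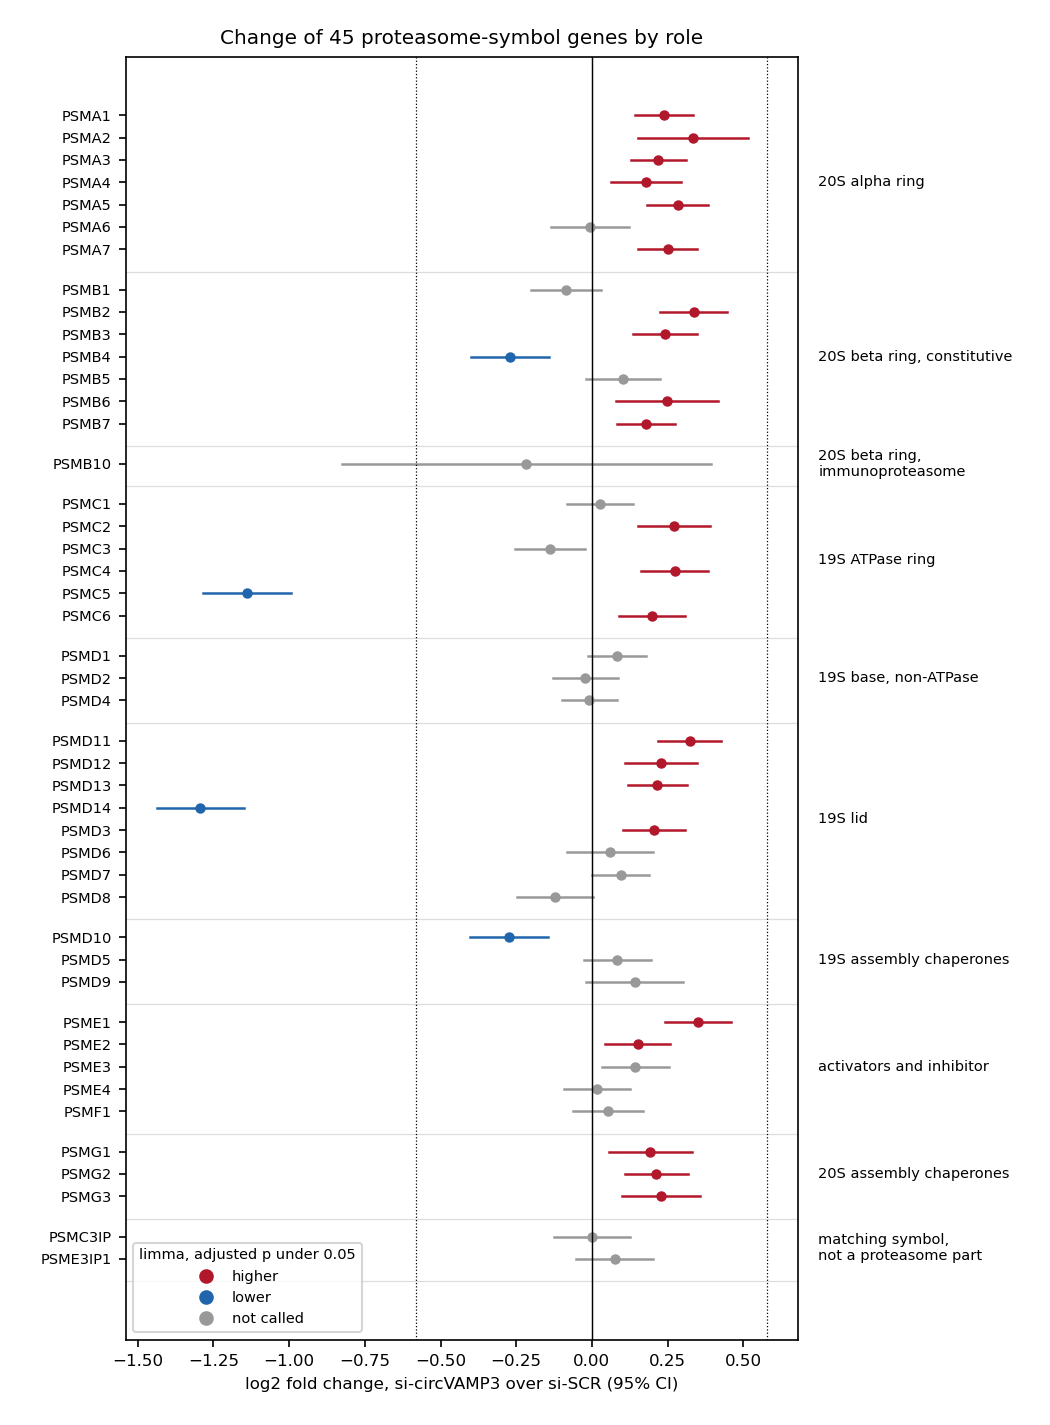
Log2 fold change (si-circVAMP3 over si-SCR, on log2(FPKM + 0.5)) of the 45 genes tested, by role, with 95% confidence intervals from limma. Colours give the call at an adjusted p under 0.05 and dotted lines mark a log2 fold change of 0.58 either way. PSMC5 (-1.14) and PSMD14 (-1.29) lie to the left of it, and the 22 genes called higher lie between 0.15 and 0.35.

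The alpha ring of the 20S core opens and closes the channel to the cutting sites. Of its 7 genes measured, 6 were called higher (85.7%, against 15.9% of all genes tested). The median log2 fold change of the 7 was 0.24. PSMA7 was the most abundant gene of all 46, with 351, 349 and 360 FPKM in si-SCR and 412 and 428 in si-circVAMP3. The groups did not overlap, and the log2 fold change was 0.25 ± 0.04 (SE, limma adjusted p = 0.0057). That call was lost without si-circVAMP3 2 (adjusted p = 0.061 by limma), and quantile normalization gave 0.12. PSMA2 read 4.47, 4.74 and 5.13 FPKM in si-SCR and 6.45 and 5.86 in si-circVAMP3. Its 2 treated values were the highest of the 5, with a log2 fold change of 0.33 ± 0.08 (limma adjusted p = 0.018), and the adjusted p was 0.062, 0.13 and 0.059 without si-SCR 2, si-circVAMP3 1 and si-circVAMP3 2. PSMA1, PSMA3, PSMA4 and PSMA5 rose by 0.18 to 0.28. PSMA6 did not pass the test, at -0.01.

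Levels of several members are uncertain on this scale. Another annotated gene on the same strand covers 67.0% of the canonical exons of PSMA1, 100% of those of PSMA2 and 81.4% of those of PSMA6, and also 56.1% of those of PSMB10 and 28.8% of those of PSMD9. A read that fits several genes is counted for none of them under the settings of the study. PSMA2 still had 627 to 894 fragments a library. The overlaps were read from GENCODE, while the study counted on an Ensembl annotation, and where the counted fragments lie was not examined. The fold changes of these genes carry this limit as well as their levels. The gene length used in FPKM is the union of all annotated exons, 6.36 times the canonical transcript for PSMA6 and 3.69 times for PSMA2, so that their level per kilobase reads low. The ratio was higher still for PSMG4 (13.3) and PSMD6 (6.70), and was 4.67 for PSMD14 and 4.52 for PSME2, so the order of levels by FPKM is uncertain for these too. Per kilobase of canonical transcript, PSMA7 stood at 692, PSMA6 at 49.4 and PSMA2 at 19.7 FPKM on average. These lengths are the same in every sample and enter the fold changes only through the pseudocount, with 0.31 for PSMA2 at a pseudocount of 1 and 0.36 at 0.1.

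The beta ring carries the proteolytic sites. Of its 7 constitutive genes, 4 were called higher (57.1%, against 15.9% of all genes tested) and 1 lower (14.3%, against 16.8%). The median log2 fold change of the 7 was 0.18. PSMB5, which carries the chymotrypsin-like site and is the main target of bortezomib, stood at 146, 153 and 162 FPKM in si-SCR and 165.1 and 164.9 in si-circVAMP3. Both treated values lay just above the highest control, and the log2 fold change of 0.10 ± 0.05 was not called (limma adjusted p = 0.17). The value depended on the setting, with 0.14 and a call without si-SCR 3 (limma adjusted p = 0.037), 0.07 without si-SCR 1 (0.34) and 0.02 under quantile normalization (0.76). PSMB6, the caspase-like subunit, read 93.1, 103 and 110 FPKM in si-SCR and 123 and 119 in si-circVAMP3. The groups did not overlap, with a log2 fold change of 0.25 ± 0.07 (limma adjusted p = 0.037), although the call was lost without si-SCR 2, si-circVAMP3 1 or si-circVAMP3 2 (0.087, 0.19 and 0.13), under quantile normalization (0.076) and with no mean-variance trend (0.061, all adjusted p by limma).

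PSMB7, the trypsin-like subunit, stood at 146, 150 and 154 FPKM in si-SCR and 171 and 169 in si-circVAMP3. Here too the treated libraries were the higher ones, with a log2 fold change of 0.18 ± 0.04 (limma adjusted p = 0.018). The adjusted p was 0.059, 0.12 and 0.093 without si-SCR 2, si-circVAMP3 1 and si-circVAMP3 2, and quantile normalization gave 0.09 (adjusted p = 0.079 by limma). PSMB2 showed the largest increase of the ring, from 49.0, 51.7 and 53.0 FPKM to 64.3 and 65.3. Its groups were well separated (log2 fold change 0.34 ± 0.05, limma adjusted p = 0.0034), and the call held under each of the 16 alternatives tried. PSMB3 rose by 0.24. PSMB1, the second most abundant gene by mean FPKM, read 200.2, 199.9 and 209 FPKM in si-SCR and 184 and 199 in si-circVAMP3, and was not called (-0.09, limma adjusted p = 0.21).

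PSMB4, a structural beta subunit, went the other way. It read 129, 136.0 and 144 FPKM in si-SCR and 114 and 112 in si-circVAMP3, so both treated values lay below the controls. The log2 fold change was -0.27 ± 0.05 (limma adjusted p = 0.012), and the adjusted p was 0.072 and 0.083 without si-circVAMP3 1 and 2. PSMB10, an inducible subunit of the immunoproteasome, was low at 2.17, 1.40 and 0.986 FPKM in si-SCR and 0.929 and 1.49 in si-circVAMP3, from 28 to 94 fragments a library. The groups overlapped. Its counting error reached 18.9%, and the spread between libraries was larger, with a coefficient of variation of 39.5% in si-SCR and a gap of 46.7% between the treated libraries. It was not called (log2 fold change -0.22, 95% confidence interval -0.82 to 0.39, limma adjusted p = 0.55). The direction depended on single libraries, with 0.006 without si-SCR 1, 0.025 without si-circVAMP3 1 and -0.457 without si-circVAMP3 2. Summed over the 15 genes of the 20S core, the level was 1433, 1465 and 1526 FPKM in si-SCR and 1618 and 1637 in si-circVAMP3.

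**Figure D2:**
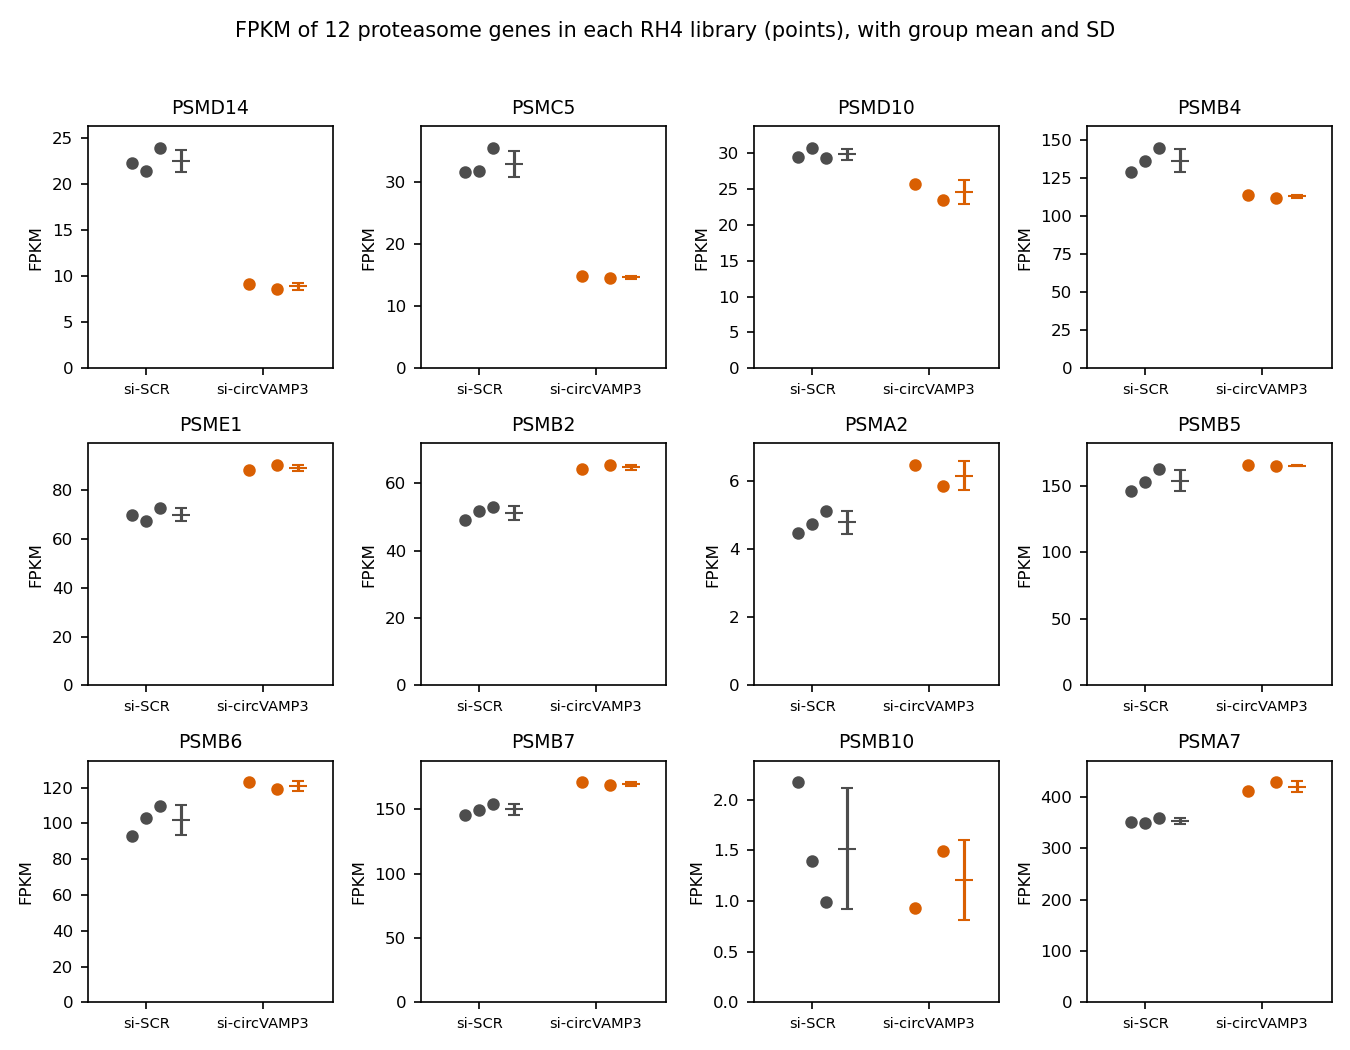
FPKM of 12 proteasome genes in each library (points), with the mean and SD of each group beside them (n = 3 for si-SCR, n = 2 for si-circVAMP3); every axis starts at 0. PSMD14 and PSMC5 fall from 22.6 to 8.92 and from 32.9 to 14.6 FPKM on average, while PSMB10 overlaps between the groups.

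The ATPase ring of the 19S particle threads the substrate into the core. Of its 6 genes, 3 were called higher (50%, against 15.9% of all genes tested), 1 lower (16.7%, against 16.8%) and 2 neither. PSMC5, the ATPase also known as Rpt6 (gene ENSG00000087191, GRCh38 chr17:63827152-63832026, forward strand), stood at 31.6, 31.7 and 35.4 FPKM in si-SCR and at 14.8 and 14.5 in si-circVAMP3. These values rest on 3601, 3386 and 3784 fragments and on 1170 and 1789. Treated libraries lay far below the controls, with means of 32.9 ± 2.22 (SD, n = 3) and 14.6 ± 0.166 (SD, n = 2) and a change of -55.5%. The log2 fold change was -1.14 ± 0.06 (SE, limma adjusted p = 0.00018), ranked 31 from the lowest of the 11253 genes, and it stayed between -1.17 and -1.08 and called under each of the 16 alternatives. PSMC2, PSMC4 and PSMC6 rose by 0.27, 0.27 and 0.20. PSMC3, among the 3 highest by mean FPKM but below PSMB4, PSMB7 and PSMD2 per kilobase of canonical transcript, read 177, 192 and 188 FPKM in si-SCR and 172 and 166 in si-circVAMP3. Its groups did not overlap, but it was not called (-0.14, limma adjusted p = 0.070). PSMC1 was at 0.03.

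Of the 3 non-ATPase genes of the 19S base, which include the ubiquitin receptor PSMD4, 0 were called by limma in either direction, 0 at an unadjusted p under 0.05 and 0 by limma voom, with log2 fold changes from -0.02 for PSMD2 to 0.08 for PSMD1. Of the 8 genes of the lid, 4 were called higher (50%, against 15.9% of all genes tested), 1 lower (12.5%, against 16.8%) and 3 neither, and the difference between base and lid was not tested. PSMD14, also known as Rpn11, is the metalloprotease of the lid that cuts ubiquitin chains off the substrate (gene ENSG00000115233, chr2:161308425-161411717, forward strand). It read 22.3, 21.5 and 23.9 FPKM in si-SCR and 9.21 and 8.63 in si-circVAMP3, from 4341, 3937 and 4366 fragments and 1248 and 1816. Both treated values were far below the lowest control. Means were 22.6 ± 1.23 (SD, n = 3) and 8.92 ± 0.414 (SD, n = 2), a change of -60.5%. Its log2 fold change of -1.29 ± 0.06 (SE, limma adjusted p = 0.00012) ranked 14 from the lowest of all genes tested and stayed between -1.35 and -1.25 under the 16 alternatives, called in each. PSMD11, PSMD12, PSMD13 and PSMD3 rose by 0.32, 0.23, 0.22 and 0.20, and PSMD6, PSMD7 and PSMD8 were not called, at 0.06, 0.10 and -0.12. Over the 17 genes of the 19S particle taken by symbol, the summed level was 1034, 1078 and 1094 FPKM in si-SCR and 1081 and 1067 in si-circVAMP3. The groups overlapped, unlike the sums of the 20S core. This sum leaves out ADRM1 and SEM1, 19S subunits with other symbols. With both added, the treated sums lay above all control sums, so the overlap depends on the naming rule.

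Assembly chaperones bring the subunits together. For the 20S core, PSMG1, PSMG2 and PSMG3 rose by 0.19, 0.21 and 0.23. The call of PSMG1 (limma adjusted p = 0.043) was lost under 9 of the 16 alternatives, among them leaving out any single library. Its log2 fold change was 0.27 without si-circVAMP3 1 and 0.12 without si-circVAMP3 2. PSMG4, left out by the filter, was at 0.871, 0.818 and 0.854 FPKM in si-SCR and 0.704 and 0.970 in si-circVAMP3, with overlapping groups. It had 136 to 291 fragments a library over its long exon union, and with no filter its log2 fold change was -0.02 (limma adjusted p = 0.91). Per kilobase of canonical transcript it stood at 11.2, beside 2.32 for PSMB10, whose exons are largely shared with another gene. Of the 3 chaperones of the 19S base, PSMD10 (gankyrin) was called lower (33.3% of the 3, against 16.8% of all genes tested). It read 29.4, 30.6 and 29.3 FPKM in si-SCR and 25.7 and 23.4 in si-circVAMP3, with both treated values below the controls. The log2 fold change was -0.27 ± 0.05 (limma adjusted p = 0.011), and the call was lost without si-circVAMP3 2 (-0.21, limma adjusted p = 0.080). PSMD9, among the 3 lowest of the 46 genes by mean FPKM, read 2.55, 2.69 and 2.65 FPKM in si-SCR and 2.84 and 3.06 in si-circVAMP3. It was not called (0.14, limma adjusted p = 0.16), nor was PSMD5 (0.08).

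Of the 4 activators and the inhibitor PSMF1, 2 were called higher (40%, against 15.9% of all genes tested). PSME1 and PSME2 together form the PA28 ring, which widens the gate of the core without ATP. PSME1 had the highest log2 fold change of the 45 genes on log2(FPKM + 0.5), while PSMA2 was above it by the change in mean FPKM (28.8% against 27.5%) and under several alternatives, among them a pseudocount of 0.1 and limma voom. PSME1 went from 69.7, 67.3 and 72.7 FPKM in si-SCR to 88.2 and 90.1 in si-circVAMP3. The groups did not overlap, and the log2 fold change of 0.35 ± 0.05 (limma adjusted p = 0.0029) was called under each of the 16 alternatives. PSME2 rose by 0.15, and that call was lost under 7 of them. PSME3, PSME4 and PSMF1 were not called, at 0.14, 0.02 and 0.05. The 2 genes that match by name alone, PSMC3IP and PSME3IP1, stood at 0.00 and 0.08 and were not called.

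**Figure D3:**
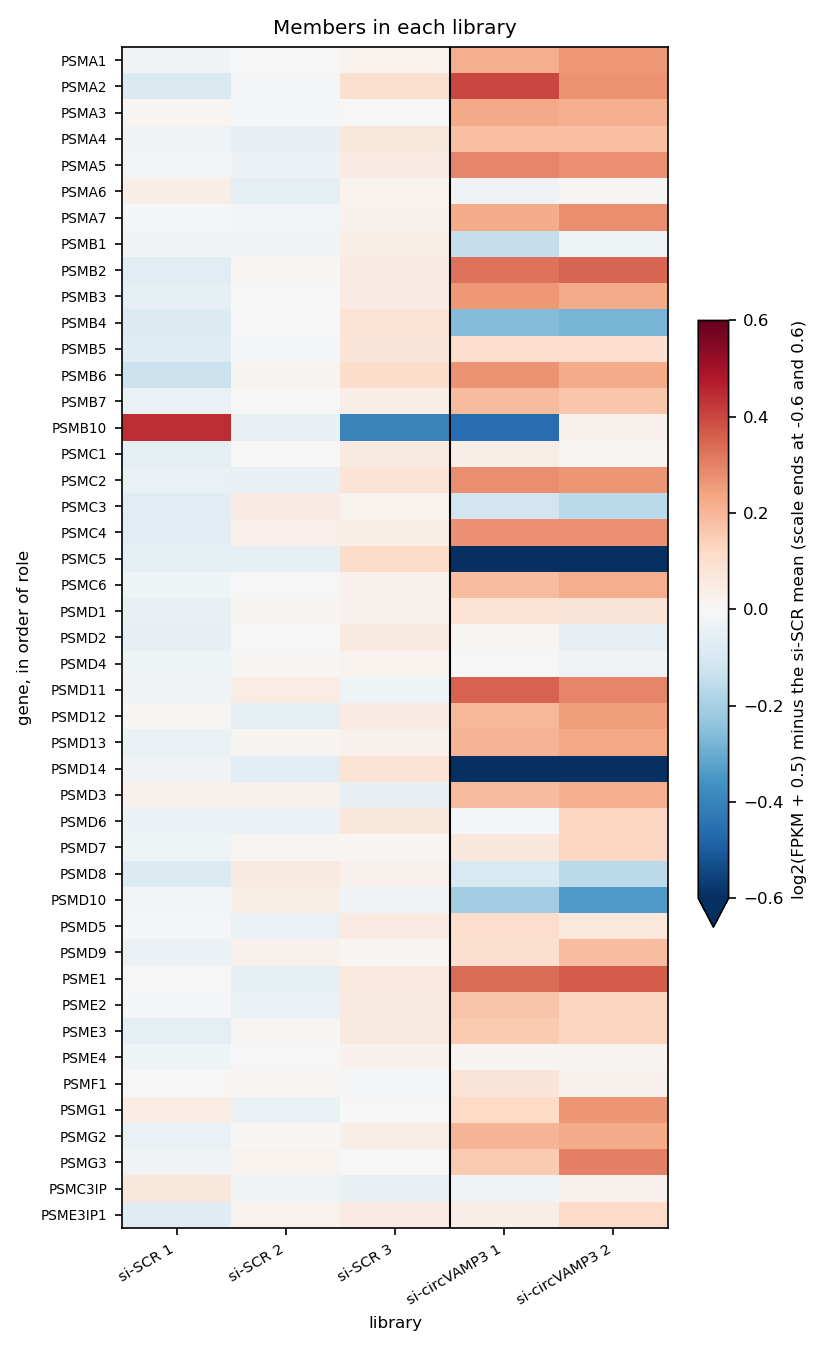
Each gene's log2(FPKM + 0.5) minus its si-SCR mean in every library, genes in order of role; colours end at -0.6 and 0.6, and PSMC5 and PSMD14 lie beyond the lower end. Median deviations of the 45 genes were -0.03, 0.00 and 0.04 in si-SCR 1, 2 and 3 and 0.12 and 0.13 in si-circVAMP3 1 and 2.

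The siRNA itself is shown because transcripts other than its target can pair with its seed, bases 2 to 8 of the guide strand. The strand listed by the study reads in the sense of VAMP3. Its first 19 bases join the last 8 bases of VAMP3 exon 4 (chr1:7778162-7778169) to the first 11 bases of exon 3 (chr1:7777160-7777170, GRCh38, forward strand), and 12 of them also occur in a run in the linear mRNA across the border of exons 2 and 3. Capitals mark bases 12 to 18, which pair with the seed of the opposite strand, taken as the guide.
si-circVAMP3: catcatcggtgGTGGACAt

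The same 7 letters occur in PSMC5 and PSMD14 transcripts, once in the coding part and once in the 3' UTR of each, as they do in PSMD2. They also occur in the coding part alone of PSMB4, called lower, and of PSMD13, called higher at 0.22. PSMA6, PSMB5, PSMC3, PSMD4 and PSME3, not called, hold them in the coding part alone as well. Sites of PSMB4 and of the members with a 3' UTR site are given in the sense of the mRNA on GRCh38. Capitals mark the letters that pair with the seed, and other letters that pair with the guide are not marked.
PSMD14 exon 4, coding, chr2:161367502-161367508: atgctcctgcaGTGGACAcagcagaacaa
PSMD14 exon 12, 3' UTR, chr2:161411618-161411624: aatacatcaaaGTGGACAaattttgttaa
PSMC5 exon 5, coding, chr17:63830163-63830169: ttgttgtagacGTGGACAaaaacattgac
PSMC5 exon 12, 3' UTR, chr17:63831970-63831976: tatggaagtgaGTGGACAgcctttgtgtg
PSMB4 exon 4, coding, chr1:151400777-151400783: tcctcggttatGTGGACAtgcttggtgta
PSMD2 exon 5, coding, chr3:184302007-184302013: aaattgagcagGTGGACAtgctggagaag
PSMD2 exon 21, 3' UTR, chr3:184308956-184308962: tgctgccaaggGTGGACAcggctgcagac
PSMD8 exon 7, 3' UTR, chr19:38383713-38383719: tctagccagctGTGGACAcataggaatgc

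In canonical transcripts, 4 of the 45 genes tested hold the site in the 3' UTR, 7 in the coding part alone and 34 in neither, PSMA4 with a site in the 5' UTR among these. The median log2 fold change was -0.63, -0.01 and 0.20 in these classes, and 2 of 4, 1 of 7 and 1 of 34 genes were called lower. In the second class 1 of 7 (14.3%) and in the third 21 of 34 (61.8%) were called higher. Over the 10263 protein-coding genes tested, the medians were -0.11, -0.05 and 0.05 in the same order, 35.4%, 25.3% and 11.6% were called lower, and 8.2%, 10.4% and 20% were called higher. The site lay in 212 of the 281 protein-coding genes lower past 0.58 (75.4%), beside 31% of the protein-coding genes tested. PSMD2 is the third member with a site in both places and was not called, at -0.02. PSMD8, with the site in the 3' UTR alone, was not called either, and PSMD10, called lower, holds none in its canonical transcript. The site for the seed of the other strand occurred in 1 of the 46 genes, PSMA4, which was called higher. The part of these matches in the fall of PSMC5, PSMD14 and PSMB4 was not tested, and the sequence of the control siRNA was not used here.

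**Figure D4:**
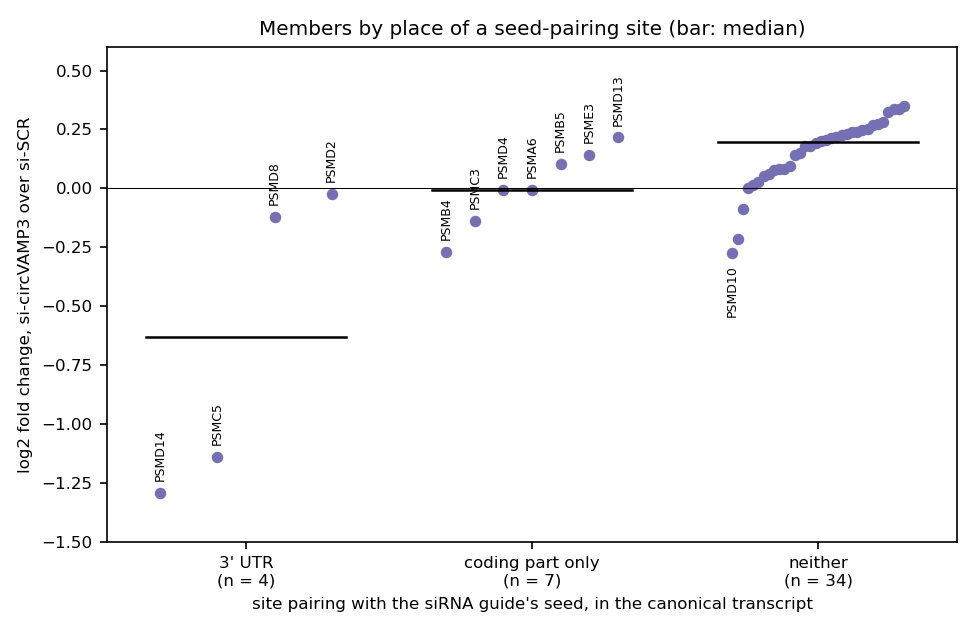
Log2 fold change of the 45 genes by where the canonical transcript holds a site that pairs with the guide's seed (bars give medians: -0.63, -0.01 and 0.20). The 3' UTR class spans PSMD14 at -1.29 to PSMD2 at -0.02, and the highest gene without a site in either place is at 0.35.

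Promoters were searched because many members rose together. RefSeq promoters (GRCh38.p14, a window around each gene's start, mostly upstream of it) were found for 40 of the 46 genes, 18 of them called higher, 4 called lower, 17 not called and PSMG4 not tested. The core of the antioxidant response element bound by NFE2L1 with small MAF proteins, TGACNNNGC on either strand, was in 12 of the 40 (30%), in 8 of the 18 called higher, 0 of the 4 called lower and 4 of the 17 not called, beside 15.2% of the promoters of protein-coding genes tested and 13.6% of all promoters in the collection. CCAAT, the NF-Y box, was in 19 of 40 (47.5%, beside 38% and 35.7%), with 8 of the 18, 3 of the 4 and 8 of the 17. CCGGAAG, an ETS motif, was in 13 of 40 (32.5%, beside 21.9% and 10.7%), with 4 of the 18, 1 of the 4 and 7 of the 17. Both strands were counted for each motif. A match describes the letters and is no evidence of binding. The upstream matches in the members called higher with the largest increases are shown, motif in capitals, in the direction of transcription.
PSME1, chr14:24136098-24136126: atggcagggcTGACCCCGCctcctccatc
PSMB3, chr17:38752627-38752655: gcctccgtttTGACTTTGCaaccaaacta
PSMD12, chr17:67366724-67366752: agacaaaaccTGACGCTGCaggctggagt

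Around the proteasome, 38 further genes of the pathway were read from 4 lists; 37 had a row, all 37 were tested, and DDI1 had no row. Of these 37, 12 were called higher (32.4%, against 15.9% of all genes tested) and 3 lower (8.1%, against 16.8%), with a median log2 fold change of 0.10, and 0 passed 0.58 either way by limma on log2(FPKM + 0.5), also at an unadjusted p under 0.05. By limma voom on the recovered fragments 1 did, MAFF, another small MAF protein, chosen here after its values were seen. It read 0.702, 0.642 and 0.522 FPKM in si-SCR and 1.04 and 1.17 in si-circVAMP3, so it passed the filter only through the group where it is high. The groups were separate, and its log2 fold change was 0.52 ± 0.11, 0.74 with a pseudocount of 0.1 and 0.85 by limma voom. It was 0.58 without si-circVAMP3 1 and 0.46 without si-circVAMP3 2, and the call was lost in both settings. MAFF is among the 12 called higher, and no conclusion is drawn from its test. Over the 37 genes, without si-SCR 1, si-SCR 2, si-circVAMP3 1 or si-circVAMP3 2, the number called higher was 7, 4, 4 or 2, against 12.5%, 8.8%, 4.7% and 4.4% of all genes tested. The number called lower was 1 and 0 without si-circVAMP3 1 and 2, against 7.5% and 6.9% of all genes. Of the 13 proteasome parts and assembly factors with other symbols, 3 were called higher (23.1%, against 15.9% of all genes tested). Among the same 13, 1 was called lower (7.7%, against 16.8%). POMP, the maturation factor of the 20S core, read 199, 191 and 195 FPKM in si-SCR and 216 and 232 in si-circVAMP3. The groups did not overlap (log2 fold change 0.20 ± 0.05, limma adjusted p = 0.019), and the call was lost without si-SCR 2 (adjusted p = 0.066 by limma) and without si-circVAMP3 2 (0.14). ADRM1, a ubiquitin receptor of the 19S base, read 146, 134 and 102.0 FPKM in si-SCR and 141 and 161 in si-circVAMP3. Its groups overlapped and it was not called (log2 fold change 0.26 ± 0.15, limma adjusted p = 0.22), with 0.11 without si-SCR 3 and 0.165 without si-circVAMP3 2. SEM1, a small lid subunit, stood at 13.1, 11.4 and 13.1 FPKM in si-SCR and 13.1 and 14.1 in si-circVAMP3, overlapping and not called (0.12, limma adjusted p = 0.28), with 0.05 without si-SCR 2, 0.065 without si-circVAMP3 2 and 0.19 with sample weights.

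Of the 12 genes of the NFE2L1 pathway, 5 were called higher (41.7%, against 15.9% of all genes tested) and 1 lower (8.3%, against 16.8%). The 5 include MAFF, which passed the filter only through the group where it is high. NFE2L1 read 53.2, 54.8 and 49.8 FPKM in si-SCR and 58.7 and 55.9 in si-circVAMP3. The treated values were the higher ones, but it was not called (0.12 ± 0.05, limma adjusted p = 0.12). NFE2L2, its relative in the oxidative stress response, was at 22.6, 24.0 and 23.8 FPKM and at 23.8 and 21.9, overlapping and not called (-0.04, limma adjusted p = 0.64). MAFG, a small MAF partner of both, had the largest log2 fold change of the list on log2(FPKM + 0.5), from 10.2, 9.70 and 8.87 FPKM to 13.8 and 14.4. Its groups did not overlap (log2 fold change 0.53 ± 0.07, limma adjusted p = 0.0025). Of the 6 ubiquitin and activating enzyme genes, 2 were called higher (33.3%, against 15.9% of all genes tested). Of the 6 shuttle factors measured, 2 were called higher (33.3%, against 15.9% of all genes tested) and 1 lower (16.7%, against 16.8%).

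**Figure D5:**
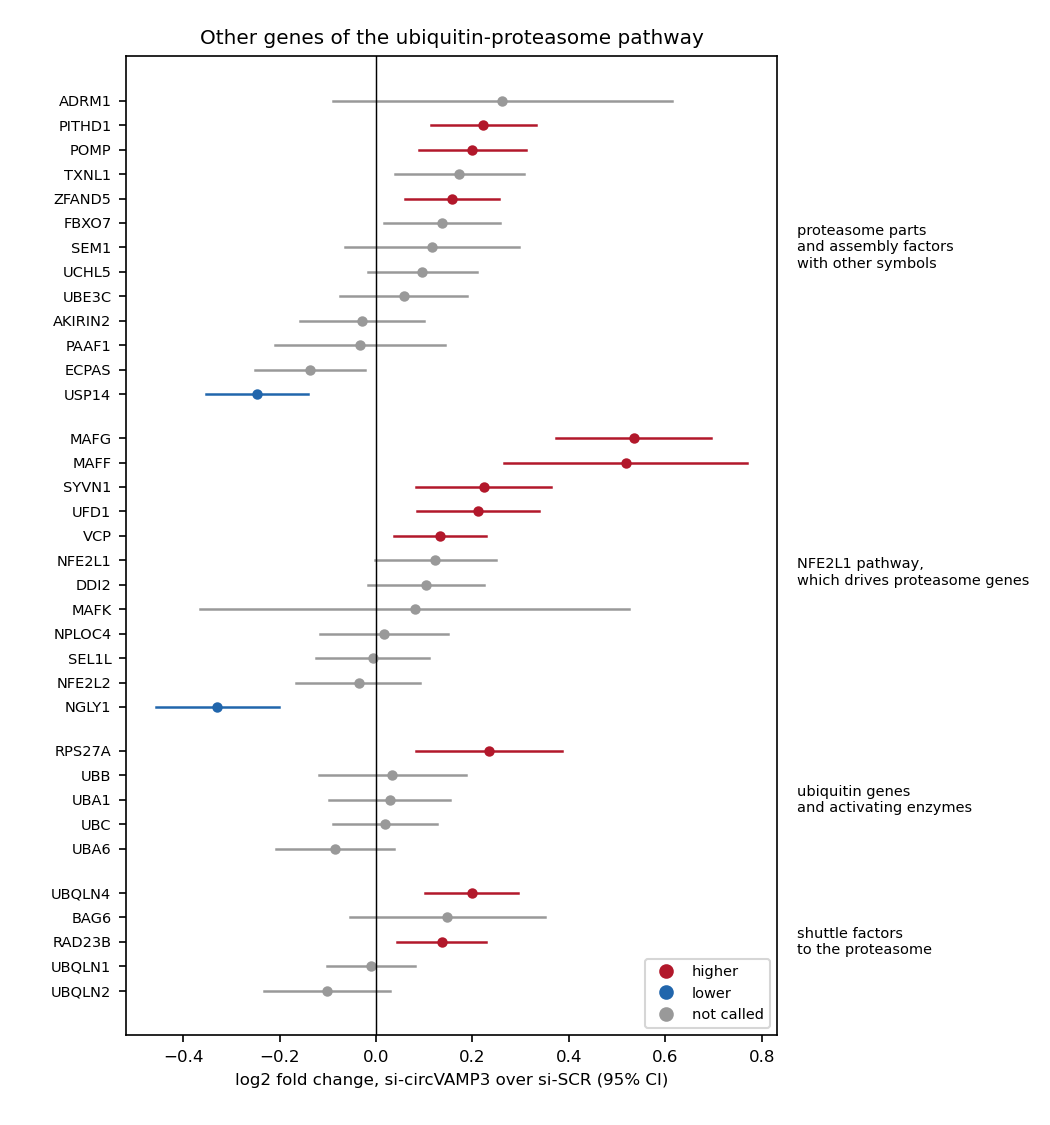
Log2 fold change (si-circVAMP3 over si-SCR) of 35 of the 37 other genes of the ubiquitin-proteasome pathway in 4 lists, with 95% confidence intervals from limma and colours for the call at an adjusted p under 0.05. MAFG (0.53) is the highest and NGLY1 (-0.33) the lowest.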

How the data were processed

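Poly-A RNA of 3 si-SCR and 2 si-circVAMP3 samples was sequenced on stranded libraries. The authors trimmed reads (Trimmomatic), aligned them to GRCh38 (STAR 2.5.2b), counted fragments per gene on the reverse strand with HTSeq (intersection-strict), removed low genes and deposited FPKM values from edgeR. Here, genes were named from GENCODE and the reference gene names (13783 of 13822 rows); members were matched by symbol. FPKM values at or above 1 in at least 2 samples were tested with limma 3.58.1 (R 4.3.3, eBayes with a trend) on log2(FPKM + 0.5), which understates changes of low genes, with Benjamini-Hochberg adjustment over all 11253 genes. Whole fragments, within 0.0001, were recovered for 13821 rows; lengths came from the annotation for 9506. The members and lists were chosen with earlier results of these data known. Genes were named in full by a rule: called members past 0.58, the 3 largest called each way, catalytic subunits, the 3 highest and lowest levels, and NFE2L1, NFE2L2, POMP, ADRM1 and SEM1; of each pathway list, genes past 0.58 and the largest change, except that 2 pathway genes, kept in the counts, are not reported here by name. Alternatives changed pseudocount, filter, scaling, trend, sample weights, block and single samples.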

Additional observations from a re-analysis of the deposited data

How the results depend on the processing

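Of the 36 genes followed across 16 alternatives, 505 of the gene results kept direction and side of the threshold, 65 lost the call, 1 gained it and 3 changed sign. With 1 library left out, PSMB10 ranged from -0.457 to 0.025 (0.006 without si-SCR 1, 0.025 without si-circVAMP3 1) and NFE2L2 from -0.095 to 0.023 (without si-circVAMP3 2), and neither was called in any setting. Pseudocounts of 0.1 and 1, no filter, median of ratios scaling and sample weights changed no call of these genes. FPKM of at least 5 (MAFF and PSMB10 not tested) changed none either, nor did limma voom on the recovered fragments, chosen after seeing the data. By voom 23 members were higher (51.1%, against 17.6% of all genes tested) and 4 lower (8.9%, against 18.0%). Leaving out 1 library moved the counts of increases most, and the cause was not tested: members called higher ranged from 4 to 23, lower from 2 to 5, 20S subunits higher from 2 to 11, 19S subunits higher from 1 to 7, pathway genes higher from 2 to 11 and lower from 0 to 3, all genes higher from 492 to 2010 and lower from 775 to 1997. Members called lower were 6 with quantile normalization (13.3%, against 15.6% of all genes tested) and 6 with sample weights (13.3%, against 21.7%). Pathway genes lower were 4 with weights (against 21.7% of all genes tested) and 4 by voom (against 18.0%). Deviations of same-numbered samples from their group means correlated at -0.174 and -0.045 across genes. With 2 treated libraries their deviations mirror each other, so these values cannot decide whether the replicate numbers pair the samples. With a replicate block, 21 members were higher (46.7%, against 14.0% of all genes tested) and 4 lower (8.9%, against 15.0%). In that fit 7 pathway genes were higher (against 14.0% of all genes), and PSMG1 and POMP lost their calls. PSMB10 had the fewest fragments of the members, 28 to 94.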
